A study of Mus musculus with 6 samples.

Results

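The poly-ADP-ribose polymerase (PARP) family members Parp9, Parp10, Parp11, Parp12 and Parp14, the ubiquitin ligase gene Dtx3l and, as the constitutive member of the family, Parp1 were followed by their symbols in RNA of cultured mouse BMDM, macrophages that were derived from bone marrow. All 7 genes had a row among the 55291 genes of the table, and all 7 were among the 12603 genes tested, those with at least 1 TPM (transcripts scaled to a library sum of 1000000) in at least 3 libraries. The study held 6 libraries, 3 from BMDM without apoptotic cell (AC) treatment and 3 from BMDM with it, which its design calls pretreatment. The sources used here do not give strain, age, genotype, the source and dose of the apoptotic cells or the timing. The labels do not say whether replicates were grown from different mice or in different dishes, and the p-values reflect the spread of these libraries, which may be technical. No library was treated with interferon, so whether the genes are inducible by it was not measured here.

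PARP enzymes transfer ADP-ribose from NAD to proteins or nucleic acids. PARP1 builds long chains at DNA breaks, while PARP10, PARP11, PARP12 and PARP14 add single units, and their genes are known as targets of interferon in many cell types. PARP9 works in a complex with DTX3L, which ubiquitinates histones and other proteins, and PARP14 has been linked in macrophages to cytokine signalling. Interferon acts on such genes through ISGF3, a complex with STAT2 and IRF9 that binds paired GAAA elements, and through STAT dimers that bind TTC and GAA half-sites.

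Parp14, Dtx3l and Parp9 lie together on chromosome 16 (mm10, GENCODE M21), at 35832874 to 35871544 (minus strand), 35926511 to 35939151 (minus) and 35938470 to 35972605 (plus). The span of these 3 genes is 139732 bases, with 54966 bases between Parp14 and Dtx3l. Dtx3l and Parp9 are head to head, and 458 bases of their exons overlap, which is 9.4% of the merged exon length of Parp9 and 8% of that of Dtx3l. How the counting treated strand is not given, so reads of that stretch cannot be assigned to either gene. Parp12 (chromosome 6, 39086410 to 39118349, minus) and Parp11 (chromosome 6, 127446840 to 127494261, plus) are far apart on chromosome 6. Parp10 lies on chromosome 15 at 76231174 to 76243441 (minus) and shares 205 exon bases with Plec on the same strand. Parp1 is on chromosome 1 at 180568924 to 180601254 (plus).

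Sequences before the transcription start are shown because interferon is known to act on these genes through elements there, and the members differ in which of them the letters hold. RefSeq start windows (GRCm38.p6, 250 bases before to 50 after a start) were at hand for 4 of the 7 genes. The 4 stretches below run 5′ to 3′ and stop before the start site. They leave out exons of protein-coding genes. For this reason the Dtx3l stretch has only 71 bases and leaves out the 179 bases next to the start. Those of Parp11, Parp12 and Parp1 have 250 bases, so the Dtx3l stretch is not the equivalent region. Capitals mark matches to the interferon element, 2 copies of GAAA with NN between, and to the STAT dimer element, TTCNNNGAA, where N is any base and both strands were searched. Their places are chr6:127446590-127446839 (plus) for Parp11, chr16:35939207-35939277 (minus) for Dtx3l, chr6:39118350-39118599 (minus) for Parp12 and chr1:180568641-180568890 (plus) for Parp1.
Parp11: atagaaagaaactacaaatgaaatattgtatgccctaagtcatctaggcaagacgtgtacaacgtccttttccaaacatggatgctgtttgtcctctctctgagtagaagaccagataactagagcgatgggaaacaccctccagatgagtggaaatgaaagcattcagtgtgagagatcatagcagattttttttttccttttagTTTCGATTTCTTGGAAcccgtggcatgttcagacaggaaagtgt
Dtx3l: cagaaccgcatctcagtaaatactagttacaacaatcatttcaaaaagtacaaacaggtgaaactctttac
Parp12: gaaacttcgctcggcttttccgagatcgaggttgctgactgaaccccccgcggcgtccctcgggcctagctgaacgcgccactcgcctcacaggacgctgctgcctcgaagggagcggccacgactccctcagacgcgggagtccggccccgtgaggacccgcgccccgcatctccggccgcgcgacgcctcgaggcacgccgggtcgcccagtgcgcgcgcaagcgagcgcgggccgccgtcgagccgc
Parp1: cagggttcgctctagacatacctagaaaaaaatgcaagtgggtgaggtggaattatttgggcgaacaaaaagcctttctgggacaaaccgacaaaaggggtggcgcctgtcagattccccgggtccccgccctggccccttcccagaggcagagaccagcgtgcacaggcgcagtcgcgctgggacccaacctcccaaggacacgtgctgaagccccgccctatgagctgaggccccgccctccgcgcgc

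In the Parp11 window the interferon element lay 44 to 35 bases before the start and the STAT dimer element 37 to 29 bases before it, so that the 2 matches overlapped. Of 32817 RefSeq start windows of 300 bases, 3.43% held the former and 8.29% the latter. The second RefSeq start of Parp11, and the whole windows of Dtx3l, Parp12 and Parp1, held neither. These windows also differed in base composition. The matching Parp11 window had 42% GC and 5 CG pairs, and the window of the second Parp11 start 59% and 25. The values were 73.7% and 46 for Parp12, 62% and 20 for Parp1 and 54.3% and 17 for Dtx3l. The medians over all windows were 52.7% and 7. Which Parp11 start these macrophages used was not measured. A match here is a match of letters and not a measured site.

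Levels of the members formed an order that differed little between libraries. Parp14 and Parp12 were highest, followed by Parp9 and Dtx3l, then Parp1 and Parp10, with Parp11 lowest in all 6 libraries. All values below are in TPM, scaled for the merged exon length of each gene, so that genes can be compared only approximately. Which transcripts the macrophages used was not measured. In AC replicate 2, for example, Parp11 had 2053 reads against 1957 for Parp10, but a merged exon length of 7026 bases against 4275. Some neighbours in this order did not differ beyond their spread. Parp14 exceeded Parp12 in 3 of 6 libraries, with a mean log2 ratio of 0.04 ± 0.13 (SD over 6 libraries). Parp9 exceeded Dtx3l in 5 of 6 (0.09 ± 0.14), and Parp1 exceeded Parp10 in 5 of 6 (0.15 ± 0.19). The other steps held in 6 of 6 libraries, at 0.42 ± 0.07 from Parp12 to Parp9, 0.51 ± 0.21 from Dtx3l to Parp1 and 0.96 ± 0.27 from Parp10 to Parp11. On this scale Parp1 was thus below 4 of the 6 interferon-linked members in macrophages of both groups. The values rested on 1683 to 18795 reads per gene and library.

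**Figure D1:**
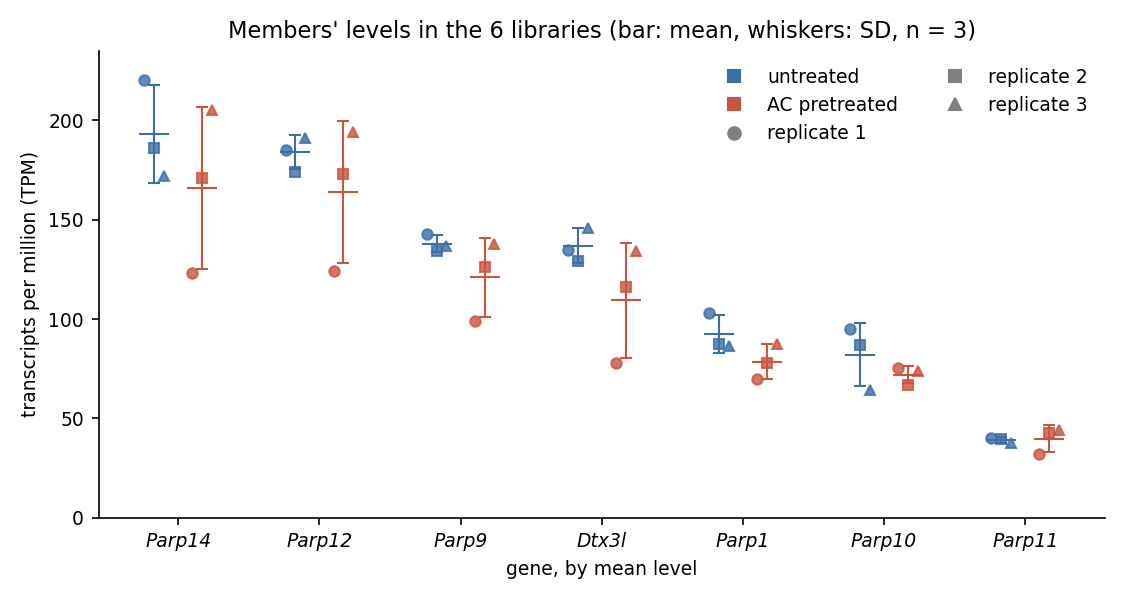
Level of each of the 7 genes (horizontal axis, by mean level) in TPM (vertical axis) in untreated (blue) and AC pretreated (red) libraries. Symbols are replicates, bars are means and whiskers SD (n = 3). AC replicate 1 (red circle) is the lowest of the 6 libraries for 6 of the 7 genes, and for 47% of all tested genes.

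After AC pretreatment 6 of the 7 members had a lower mean and Parp11 a slightly higher one, but no member passed the test. The means of the 6 members that were lower differed by -0.35 to -0.17 on the log2(TPM + 1) scale, with SE of 0.15 to 0.20. Over all tested genes, 70.6% were lower on average in the AC group and the median difference was -0.07, so 6 of 7 is close to the background. By median-of-ratios scaling 52.6% of genes had a lower mean and the median was -0.008. The same 6 members were lower there, at -0.29 to -0.10. By limma 0% of genes had an adjusted p under 0.05 and 1.3% an unadjusted one, and all 7 members had an adjusted p of 1. The groups overlapped for each of the 7 members, while 4.42% of tested genes had groups that did not overlap.

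Of the pair on chromosome 16, Dtx3l, the ubiquitin ligase, had the lowest difference of the 7. It stood at 135, 129 and 146 TPM in untreated replicates 1, 2 and 3 and at 77.9, 116 and 134 TPM in AC replicates 1, 2 and 3. AC replicate 1 was far below the other 5 libraries, and AC replicate 3 lay within the untreated range. Its difference was -0.35 ± 0.20 (SE, 95% interval -0.82 to 0.11), and 4.8% of tested genes had a lower one. Without AC replicate 1 it was -0.13 ± 0.12.

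Parp9, its partner, stood at 143, 134 and 137 TPM without and 98.9, 126 and 138 TPM with AC pretreatment. The untreated libraries were close together and AC replicate 1 was again the lowest. The difference was -0.20 ± 0.15 (95% interval -0.56 to 0.15), and -0.07 ± 0.11 without AC replicate 1. The ratio of Parp9 to Dtx3l was 1.05, 1.04 and 0.938 in untreated and 1.27, 1.08 and 1.02 in AC libraries. The 2 genes were thus at nearly equal levels except in AC replicate 1, where Dtx3l was the lower. The groups differed by 0.15 in log2 ratio (exact permutation p = 0.3, 2-sided, where 0.1 is the smallest p that 3 against 3 allows).

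Parp14, which adds single ADP-ribose units and reads ADP-ribose through its macrodomains, stood at 220.2, 186 and 172 TPM in untreated libraries. In AC libraries it stood at 123, 171 and 205 TPM. The AC libraries spanned more than the untreated ones, with replicate 1 lowest of all 6 and replicate 3 the second highest. The difference was -0.24 ± 0.20 (95% interval -0.70 to 0.23) and -0.04 ± 0.15 without AC replicate 1.

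Parp12, which carries zinc fingers that bind RNA, stood at 185, 174 and 191 TPM without and 124, 173 and 194 TPM with AC pretreatment. AC replicate 3 was the highest and AC replicate 1 the lowest of the 6. The difference of -0.19 ± 0.18 (95% interval -0.60 to 0.22) became 0.00 ± 0.11 without AC replicate 1.

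Parp10, a mono-ADP-ribosyltransferase, was the member that did not follow this pattern. It stood at 94.8, 86.9 and 64.2 TPM without and 75.6, 67 and 73.7 TPM with AC pretreatment. Its lowest library was untreated replicate 3, and AC replicate 1 was the highest of the AC group. The difference was -0.17 ± 0.17 (95% interval -0.56 to 0.23), -0.20 ± 0.18 without AC replicate 1, -0.33 without untreated replicate 3 and -0.05 without untreated replicate 1.

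Parp11, a mono-ADP-ribosyltransferase of the nuclear envelope, stood at 40.4, 39.7 and 37.5 TPM in untreated libraries and 32.1, 42.8 and 44.3 TPM in AC libraries. AC replicate 1 was the lowest and the other AC libraries were the highest of the 6. The difference was 0.01 ± 0.16 (95% interval -0.37 to 0.38) and 0.15 ± 0.11 without AC replicate 1, and it turned to between -0.08 and -0.02 without untreated replicate 3, AC replicate 2 or AC replicate 3.

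Parp1, the DNA-break sensor, did not pass either. It stood at 103, 87.4 and 86.4 TPM without and 70, 78.1 and 87.7 TPM with AC pretreatment. AC replicate 3 lay within the untreated range, and the 2 other AC libraries below it. Its difference, -0.23 ± 0.15 (95% interval -0.57 to 0.10), was as large as that of Parp14 and became -0.15 ± 0.13 without AC replicate 1 and -0.15 without untreated replicate 1.

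**Figure D2:**
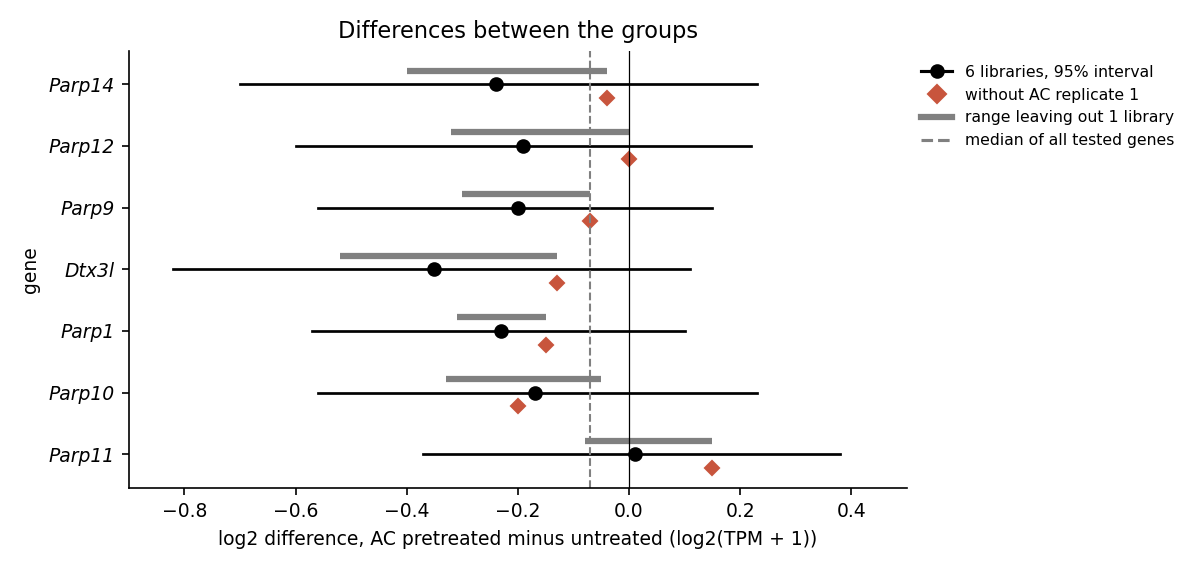
Log2 difference of each member, AC pretreated minus untreated (horizontal axis), by gene (vertical axis). Black points with lines are the limma estimates with 95% intervals, grey bars the range on leaving out 1 library, red diamonds the value without AC replicate 1, and the dashed line the median of all tested genes (-0.07). All 7 intervals cross 0.

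Ratios to Parp1 within a library do not depend on how the library was scaled. For 5 of the 6 interferon-linked members the ratio differed little between the groups, by -0.12 (Dtx3l) to 0.07 (Parp10) in log2. For Parp14 it was 2.13, 2.13 and 1.99 in untreated and 1.76, 2.19 and 2.33 in AC libraries, and for Parp12 1.79, 2, and 2.21 against 1.78, 2.21 and 2.21. Both sets of ratios overlapped between the groups. The ratio of Parp11 to Parp1 was 0.391, 0.454 and 0.434 in untreated and 0.459, 0.548 and 0.506 in AC libraries. The groups did not overlap, and AC replicate 1 (0.459) was close to untreated replicate 2 (0.454). The difference was 0.24 in log2, with a 2-sided p = 0.1 by exact permutation, the lowest that can be reached here, and an adjusted p = 0.6 over the 6 ratios, and it did not pass. The other 5 ratios had an exact permutation p of 0.6 to 1 and an adjusted p of 1.

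AC replicate 1 held the lowest value of 6 of the 7 members, all but Parp10. Centred on each gene's mean over the 6 libraries, the members stood at -0.63 (Dtx3l), -0.52 (Parp14), -0.46 (Parp12), -0.37 (Parp9), -0.28 (Parp11), -0.27 (Parp1) and -0.01 (Parp10) in that library. The same held for many other genes, since 47% of all tested genes had their lowest value there, and their median was -0.18. In AC replicates 2 and 3 the mean of the 6 interferon-linked members was -0.03 and 0.13, against 0.18, 0.08 and 0.03 in untreated replicates 1, 2 and 3. Of the AC libraries, replicate 3 was thus above 2 of the 3 untreated ones. Without AC replicate 1, 6 of the 7 members still had a lower mean, one of them (Parp12) by less than 0.01, while 48.3% of all tested genes did. The median over the 6 interferon-linked members was -0.20 with all libraries and -0.05 without that one.

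**Figure D3:**
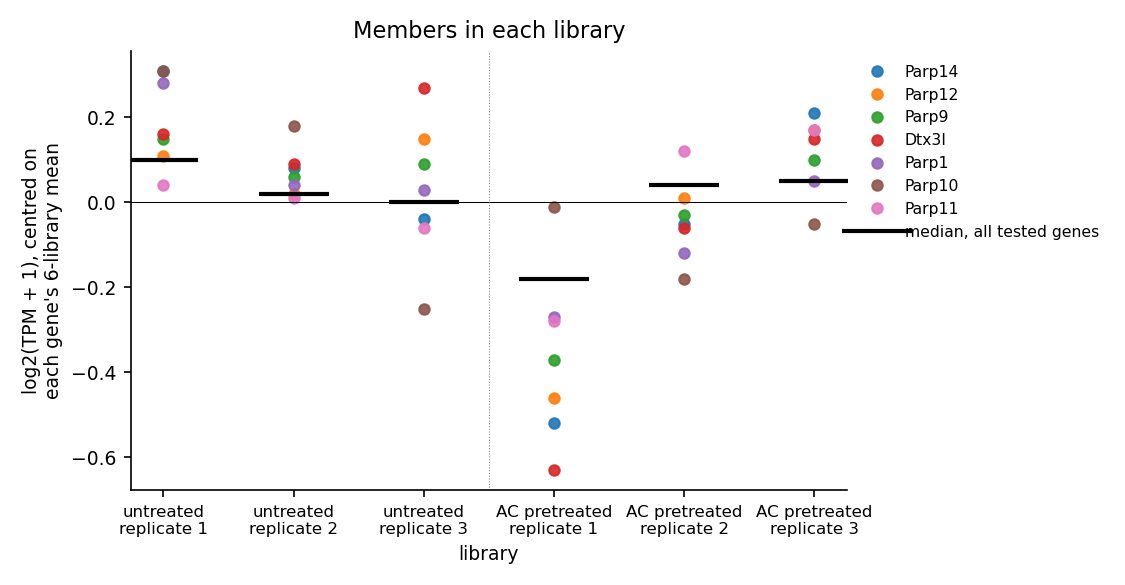
Level of each member in each library (horizontal axis) as log2(TPM + 1) centred on the gene's mean over 6 libraries (vertical axis). Black bars are the median of all tested genes. In AC replicate 1 all members but Parp10 lie below the median of -0.18.

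The level of a gene in AC replicate 1 moved with the length of its transcript. Among tested genes with a merged exon length of 1000 to 1999 bases the median centred level there was 0.12, among those of 4000 to 7999 bases -0.27, and among those of 8000 bases or more -0.44. AC replicate 3 went the other way, from -0.16 to 0.11 and 0.27 in the same classes. The members are 3995 (Parp12) to 9306 (Parp14) bases long, against a median of 3854. Of the 4799 tested genes in that range, 65.7% were lowest in AC replicate 1 and 74.8% were lower on average in the AC group, with a median difference of -0.07. Dtx3l (5725 bases), Parp12, Parp9 (4872) and Parp14 were lower in AC replicate 1 than the median of their length class, Parp1 (5293) and Parp11 (7026) were near it, and Parp10 (4275) was above it. The part of transcript length in these differences was not tested.

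Base composition varied between the libraries in another way. Parp10 has the highest GC content of the 7, with 57.9% in its longest transcript, above 91.3% of tested genes. The other members had 45.9% (Dtx3l) to 52.7% (Parp1). Among genes of 55% GC or more the median centred level was -0.14 in untreated replicate 3, where Parp10 was at -0.25, and -0.03 in AC replicate 1, where it was at -0.01. Among genes under 45% GC these medians were 0.08 and -0.30. The part of GC content in the profile of Parp10 was not tested.

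**Figure D4:**
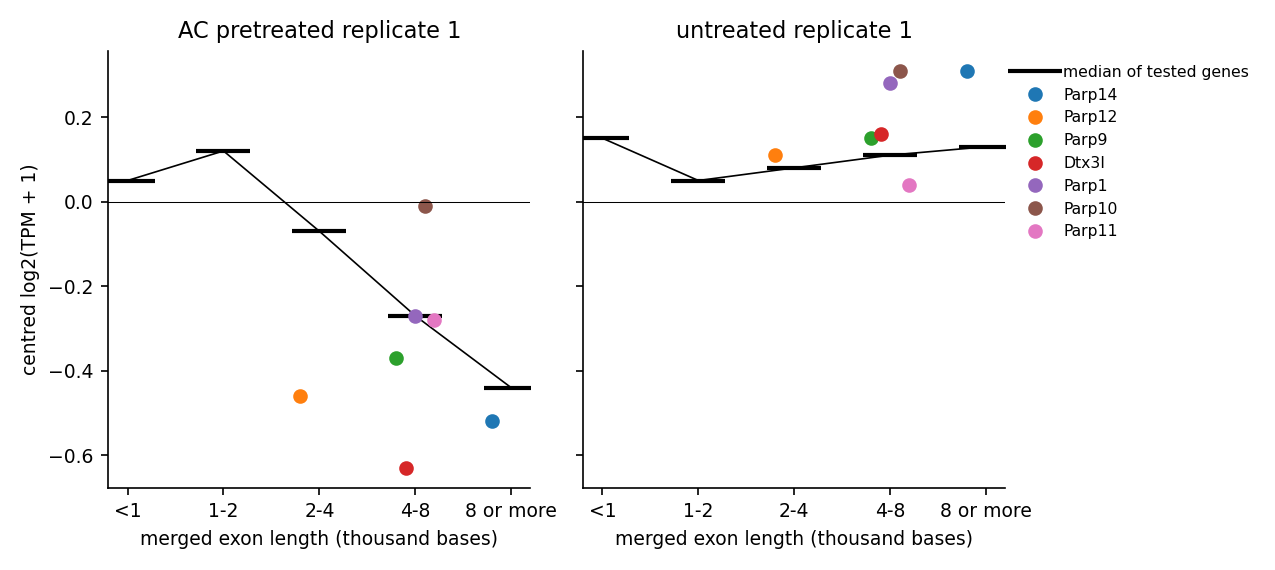
Centred level of the members (colored points) and the median of all tested genes (black bars) by class of merged exon length (horizontal axis, kb) in AC replicate 1 (left) and untreated replicate 1 (right). The medians fall from 0.12 to -0.44 beyond the class of 1000 to 1999 bases on the left and stay between 0.05 and 0.15 on the right.

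Correlations between members over the 6 libraries set Parp10 apart. As a description over 6 libraries that share the low AC replicate 1, Pearson's r was 0.98 for Dtx3l with Parp9, 0.98 for Dtx3l with Parp12, 0.97 for Parp9 with Parp12 and 0.94 for Parp9 with Parp14. Parp1 correlated with Parp14 at 0.92 and with Parp9 at 0.88, no less than several interferon-linked members with each other. Parp10 stood between -0.02 (Parp12) and 0.56 (Parp1). Whether the exons shared by Dtx3l and Parp9 add to their correlation was not tested. Of 8696 other genes with a mean of at least 5 TPM, the 8 whose profile was most like the mean of the 6 interferon-linked members had r from 0.992 to 0.999, and included Dcp1a, Nxpe5, Fnbp1l, Eloa, Asph, Ptpn9 and Cdc23. None of these 8 is on the list of 20 interferon-stimulated genes used here. That list is too short beside 8696 genes for this absence to be informative. All 8 were lowest in AC replicate 1, Dcp1a for example at 6.36 TPM there against 10.5 to 13.6 TPM elsewhere.

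Neighbouring genes on chromosome 16 were lower in level than Parp14, Dtx3l and Parp9 and did not share one direction. Within 200 kb of Parp9 and Dtx3l, 5 other protein-coding genes were tested. Kpna1, which encodes an importin, lies next to Parp9 and had means of 14.9 ± 1.19 TPM (untreated) and 16 ± 4.24 TPM (AC; SD, n = 3), a difference of 0.06 ± 0.22. Wdr5b and Fam162a differed by -0.03 ± 0.27 and -0.02 ± 0.22, and Ccdc58 and Hspbap1 by -0.19 ± 0.17 and -0.24 ± 0.25. Hspbap1 was at only 1.11 to 1.93 TPM, near the filter, where the log2(TPM + 1) scale understates changes. Kpna1 was also lowest in AC replicate 1, at 11.2 TPM, while Fam162a was highest there, at 50.7 TPM. Csta1 and Stfa2l1 were at 0 in every library.

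**Figure D5:**
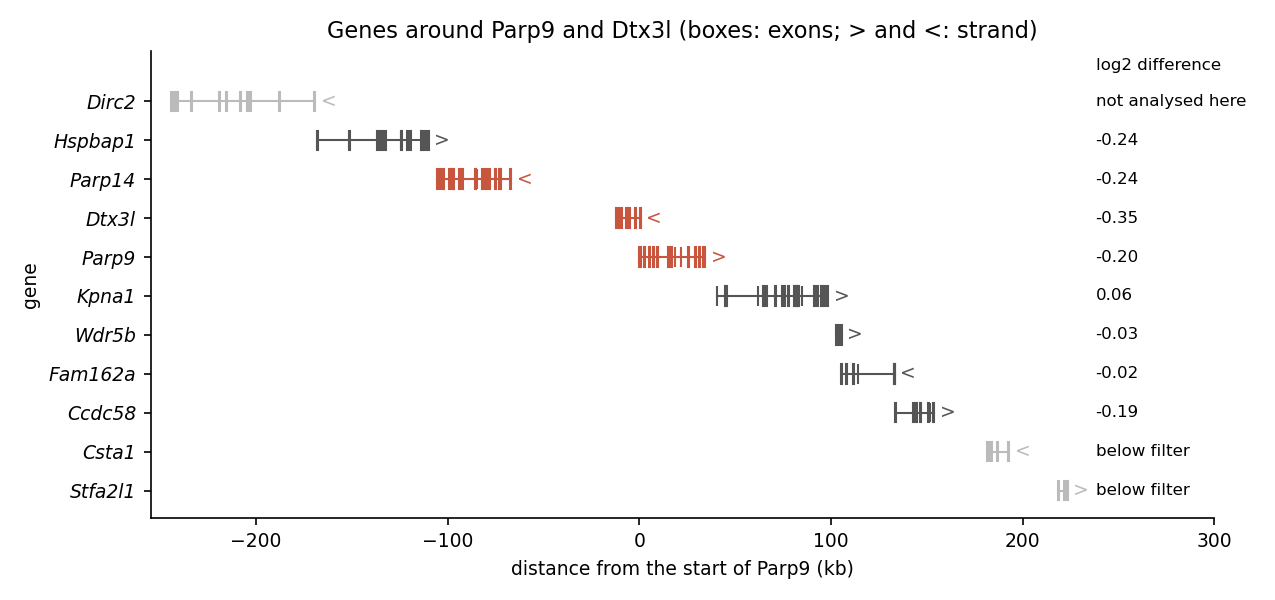
Protein-coding genes within 200 kb of Parp9 and Dtx3l by distance from the start of Parp9 (horizontal axis, kb), 1 gene per line (vertical axis), with exons as boxes and the log2 difference at the right. Members are red, other tested genes dark grey and genes not tested light grey. Differences on the log2(TPM + 1) scale run from -0.35 for Dtx3l to 0.06 for Kpna1.

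The other PARP genes did not pass the test either. Of 10 tested, among them the DNA repair enzymes Parp2 and Parp3, the tankyrases Tnks and Tnks2, Tiparp and the antiviral zinc finger gene Zc3hav1, 8 had a lower mean. Their median was -0.10, and 7 of the 10 were lowest in AC replicate 1, against 47% of all tested genes. Among tested genes in the members' length range it was 65.7%, but the lengths of these 10 genes were not compared. Without that library 3 of 10 had a lower mean and the median was 0.05, and by median-of-ratios scaling 5 of 10 were lower. Zc3hav1, a further interferon-linked PARP, stood at 118, 109 and 103 TPM without and 77.9, 106 and 120.1 TPM with AC pretreatment. As for Parp12, AC replicate 1 was the lowest and AC replicate 3 the highest of the 6 libraries. Its difference was -0.13 ± 0.18 and 0.04 without AC replicate 1. Parp3 differed by -0.26 ± 0.18, Parp16 by -0.19 ± 0.21 and Parp8 by -0.14 ± 0.16.

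Genes that remove ADP-ribose or assist PARP1 did not pass either. Of 7 tested, 6 had a lower mean, one of them (Oard1) at 0.00 to 2 decimals, with a median of -0.06, and 4 were lower by median-of-ratios scaling. Without AC replicate 1, 4 were lower and the median was -0.19. Adprhl2, which encodes a serine ADP-ribosyl hydrolase, differed by -0.17 ± 0.16, Adprh, which acts on arginine, by -0.13 ± 0.13, and Xrcc1, a repair scaffold, by -0.15 ± 0.18. Hpf1, the PARP1 cofactor for serine, differed by 0.07 ± 0.16. Of 6 tested genes of NAD supply and breakdown, 3 were lower and 3 higher, with a median of 0.03. Cd38, which encodes an NAD glycohydrolase, differed by 0.32 ± 0.27, a value carried by 14.3 TPM in AC replicate 1 and down to 0.06 without it. Nadsyn1, Nmnat3 and Nmnat1 differed by 0.16 ± 0.21, 0.11 ± 0.21 and -0.14 ± 0.17. The Deltex ligase genes related to Dtx3l had higher means in 3 of 3 tested (Dtx3 at 0.22 ± 0.23, Dtx2 at 0.09 ± 0.17, Dtx4 at 0.05 ± 0.18). Dtx3 was low in untreated replicate 3 (34.3 TPM against 56.1 to 64 elsewhere), the library that was also low for Parp10, and stood at -0.06 without it.

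Upstream of the members, the genes of interferon receptors, Janus kinases, STATs and interferon regulatory factors had lower means in 12 of 12, with a median of -0.15, and 0 passed. Without AC replicate 1 it was 10 of 12, at a median of -0.13, and by median-of-ratios scaling 12 of 12, at -0.08. Of all tested genes 70.6% had lower means, 48.3% without AC replicate 1 and 52.6% by median-of-ratios scaling. Groups did not overlap for 2 of the 12, Ifnar2 and Irf1, against a background of 3.48% of genes whose AC libraries were all below the untreated ones. Irf1, which encodes a transcription factor induced by interferon, had means of 107 ± 7.13 (untreated) and 87.7 ± 11.7 TPM (AC; SD, n = 3), a difference of -0.29 ± 0.15 that was -0.37 without AC replicate 1. Among the ISGF3 genes, Irf9 differed by -0.15 ± 0.13 and Stat2 by -0.20 ± 0.18. Stat2 stood at 178 TPM in AC replicate 1, against 217 to 289 TPM elsewhere, and was at -0.04 without it.

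Other interferon-stimulated genes had lower means in 20 of 20, beside 70.6% of all tested genes, with a median of -0.21, and 0 passed over all genes. Of these 20, 7 were lowest in AC replicate 1, against 6 of the 7 members and 47% of all tested genes. Among tested genes in the members' length range it was 65.7%. The part of transcript length in this contrast was not tested. In 5 of the 20, Ifit3, Rsad2, Cmpk2, Cxcl10 and Gbp3, the AC libraries were all below the untreated ones, beside 3.48% of all tested genes. By median-of-ratios scaling 16 of the 20 were lower, beside 52.6% of all tested genes, with a median of -0.14. Without AC replicate 1, 19 of the 20 were lower, beside 48.3% of all tested genes. The median of the 20 was then -0.17, beside -0.05 for the 6 interferon-linked members and 0.009 for all tested genes. These gaps were not tested. Cxcl10 had the smallest unadjusted p of the 20 by limma. It differed by -0.61 ± 0.17, and by -0.63 without AC replicate 1, but did not pass. Irf7, the regulator that sustains the interferon response, is counted among the 12 signalling genes above and not among these 20. It differed by -0.22 ± 0.16 and by -0.36 without AC replicate 1. The ubiquitin-like modifier gene Isg15 stood at 1355 TPM in AC replicate 1, above 2 of the 3 untreated libraries, and at 745 and 1045 TPM in AC replicates 2 and 3. For the members other than Parp10, AC replicate 1 was the lowest of the AC libraries. The lists and members had been chosen with results of these data known, so their direction is not independent evidence.

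Macrophage markers were present in both groups. C1qa was the highest except in AC replicate 2, where Cd68 exceeded it (4592 against 3538 TPM). Mertk was the lowest, at 55 to 104 TPM. Summed over 8 such markers, TPM lay between 13449 and 16774, and 7 of 8 thymocyte and T cell markers and 4 of 4 B cell markers were below 1 TPM in every library. Cd3e reached 0.0359 TPM at most, while Cd4 stood at 9.48 to 16.8 TPM. Markers of plasmacytoid dendritic cells, which make interferon, summed to 23.4 to 34.9 TPM, with overlapping ranges in the groups. Most of this sum was Cox6a2 (5.07 to 19 TPM) and Tcf4 (9.12 to 15.1 TPM). Siglech stood at 0.972 to 3.54 TPM, Ccr9 at no more than 1.02 TPM and Klk1 at no more than 0.686 TPM. Neutrophil markers summed to 20.1 to 46.3 TPM, also with overlap. Epithelial markers summed to 1.13, 1.56 and 0.65 TPM in untreated libraries. In AC libraries they summed to 2.04, 4.7 and 2.56 TPM, all higher. Krt8 and Krt18, at most 2.24 TPM in any library, carried this. Cdh1 did not share it, with 0.283 to 0.821 TPM in untreated and 0.283 to 0.337 TPM in AC libraries. Of all tested genes, 4.42% had groups that did not overlap. Epcam was at 0 in every library, and the part of epithelial markers in the members' values was not tested. Placental transcripts (11 markers, 2 of them at 0 in every library) were present in 4 libraries, replicates 1 and 2 of both groups, at summed levels of 16 to 131 TPM, and at or near 0 in replicate 3 of both. Among these 4 libraries the members' differences ran from -0.48 (Parp14) to -0.11 (Parp11), and between the other 2 from -0.12 (Dtx3l) to 0.25 (Parp14). AC replicate 1 is among the 4, and the median over all genes was -0.13 among them and 0.05 between the other 2. The part of these transcripts in the members' values was not tested. In bulk RNA fewer cells of a type and less RNA per cell cannot be told apart.

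Libraries of the AC group spread more widely than the untreated ones, for 6 of the 7 members and for 73.3% of all tested genes. The SD of log2(TPM + 1) was 0.40 in AC and 0.09 in untreated libraries for Dtx3l, 0.33 and 0.07 for Parp12, 0.37 and 0.18 for Parp14 and 0.24 and 0.04 for Parp9, beside medians of 0.29 and 0.16 over all genes. For Parp10 it was 0.09 and 0.29. When limma weighted the libraries by their spread, 2.19% of genes passed an adjusted p of 0.05 and 0 of the 7 members did. With these weights the difference was -0.34 for Parp10, -0.18 for Dtx3l, -0.14 for Parp14, -0.11 for Parp9, -0.04 for Parp12, -0.18 for Parp1 and 0.09 for Parp11.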

How the data were processed

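Values came from a table the authors deposited, in which each gene has a signal for each of the 6 libraries that the file calls TPM. STAR 2.7.10a, Subread, featureCounts 2.0.3 and mm10 are named, per the submitters' processing notes, with no role or order. The sources used here give no annotation release, strand setting or filter. Deposited columns summed to 54732 to 92831, so each was rescaled to 1000000. Multiplied by merged exon length (GENCODE M21) and divided by 8.57, the values of 98.5% of 23829 genes were whole in all 6 libraries (tolerance 0.02), which gave 19330345 to 32649083 reads per library. Of the 6 columns 0 were left unused. Replicate pairs all differed beyond sampling noise (chi-square).

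Of all genes, those at 1 TPM or more in 3 libraries entered limma 3.58.1 with a trend (R 4.3.3), on log2(TPM + 1), which understates changes of low genes, with Benjamini-Hochberg adjustment over all 12603 genes at 0.05. Ratios used exact permutation tests (scipy 1.17.1, Python 3.11.15). On simulated data for this comparison over 12603 genes, limma called 5.07% of 1.5-fold, 37.6% of 2-fold and 88.2% of 4-fold changes. The simulated noise was independent between libraries and equal in both groups, unlike the wider AC spread here. Only genes above a minimum level were changed, so these rates may not hold for the real libraries. The 7 members and all lists were chosen with earlier results of these data known. Named were all members, at most 4 genes of each list by smallest p, neighbours within 200 kb and the genes most alike, of which 8 were taken. Some genes that this rule or the lists hold are not reported here. Tnks, Tnks2, Tiparp, Parp2, Stat2, Oard1, Ifnar2, Ifit3, Gbp3, Isg15, Plec and the marker genes were named after their values were seen. Alternatives were other pseudocounts, filters, scalings, variance models, a replicate block, a placental batch term, voom and leaving out libraries. Counts of members and list genes without AC replicate 1 were added after seeing the data.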

Additional observations from a re-analysis of the deposited data

How the results depend on the processing

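No member passed the test under any alternative run. The number of genes called by limma was 0 with all settings but 2: 1 without the trend and 276 with library weights (102 higher, 174 lower). Unadjusted, limma put 164 genes under p 0.05 with the settings of the report and 98 by voom on recovered reads, which also called 0. On leaving out 1 library the count stayed at 0 (lowest 0, highest 0). With the replicate block it was 0 as well, with 225 genes at an unadjusted p under 0.05. Over all tested genes, deviations of same-numbered libraries correlated at r of -0.06, 0.01 and 0.17, so the numbers were not taken as pairs, although placental transcripts were present in replicates 1 and 2 and at or near 0 in replicate 3 of both groups. A paired test of each ratio cannot go below 0.25. A batch term for placental transcripts called 0. Leaving out 1 library moved log2 differences to -0.31 to -0.15 for Parp1, -0.30 to -0.07 for Parp9, -0.52 to -0.13 for Dtx3l, -0.33 to -0.05 for Parp10, -0.32 to 0.00 for Parp12 and -0.40 to -0.04 for Parp14, with no change of sign. For Parp11 they ran from -0.08 to 0.15, and the sign turned. Log2 ratios to Parp1 also turned sign, from -0.03 to 0.09 for Parp9, -0.21 to 0.02 for Dtx3l, -0.05 to 0.16 for Parp10, -0.03 to 0.15 for Parp12 and -0.09 to 0.12 for Parp14. The ratio of Parp11 to Parp1 did not turn (0.18 to 0.31). The cause was not tested. Each member had at least 1683 reads in each library. With 3 libraries a group, the SE of Dtx3l was 0.20, and 0.12 without AC replicate 1.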
